A study of Bos taurus with 10 samples.

Results

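Immediate early response genes were followed in liver biopsies of Holstein dairy cows, as the transcripts that report most directly on acute stimulation of a tissue, sampling included. The set was chosen by symbol and held 10 genes: FOS, FOSB, JUN, JUNB, EGR1, ATF3, IER2, DUSP1, MYC and KLF6. An array probe set, a group of short probes that reads 1 transcript, was taken as a member when the platform annotation gave it a single one of these symbols. This found 18 probe sets for 9 of the genes, of 24016 probe sets for 9155 named genes in all. KLF6 had no such probe set and was not analysed here. JUN was read by 5 probe sets, IER2 by 3, FOS, FOSB and EGR1 by 2 each, and JUNB, ATF3, DUSP1 and MYC by 1 each.

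The study set 20 female Holstein cows on a fat supplement of conjugated linoleic acid (CLA), a group of fatty acids in which the double bonds of linoleic acid are conjugated, against 20 female Holstein cows on a control fat, both protected from the rumen. Both fats made up 27.3% of an extra concentrate of 630 g dry matter per day, fed from week 3 before calving to week 14 of lactation on top of the same ration. First-calf and older cows were included, at an average parity of 2.6 over the 40 cows. Biopsies of week 5 of lactation were used, and per the labels' protocols they were snap-frozen at once in liquid nitrogen. Each array read 1 pool of RNA from 4 cows, 5 CLA pools and 5 control pools in all, so the spread between pools is that of averages over 4 cows and hides single animals.

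Immediate early genes are switched on within minutes of a stimulus by transcription factors that are already present, such as SRF with its ETS partners and CREB, which growth factor and stress kinases activate. Most encode short-lived transcription factors that go on to set a second wave of expression, and their messenger RNAs decay quickly. In rodent liver they are known to respond to injury, to partial hepatectomy and to the isolation or handling of tissue, which is why their level in biopsies is read as a sign of sampling stress.

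Array medians were 5.79 to 5.82 in the CLA pools and 5.83 to 5.85 in the control pools on the log2 scale, and pairs of arrays correlated at 0.988 to 0.996 across probe sets. CLA pool 2 and control pool 4 had the lowest mean correlation with the other arrays, 0.990 each. Hepatocyte markers (11 of 12 measured, among them ALB and APOA1) were bright in every pool, with a mean log2 level of 13.1 to 13.2 in CLA pools and 13.0 to 13.2 in control pools. The RNA was taken from whole tissue, so fewer cells of a type and less RNA per cell cannot be told apart.

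No immediate early gene differed between the CLA and the control pools past the test adjusted over the whole array. Limma with adjustment by Benjamini-Hochberg gave 0 of the 18 probe sets an adjusted p under 0.05, where 0% of all 24016 probe sets did, and the lowest adjusted p among the 18 was 0.358, that of FOSB. At an unadjusted p under 0.05 limma called 2 of the 18, 1 each for FOSB and IER2, both with the lower mean in the CLA pools. Of all probe sets 8.89% were called at that threshold, and 4.88% were called with the lower mean in CLA. The CLA and control pools overlapped at every one of the 18, and 1.97% of all probe sets had groups that did not overlap. The mean was lower in the CLA pools for 14 of the 18, where 55.9% of all probe sets had a lower mean. Taking the brightest probe set of each gene, 5 of the 9 genes had a lower mean in the CLA pools (53.2% of all named genes) and 4 a higher one, with a median difference of -0.032 on the log2 scale, against -0.010 over the 9155 named genes. That median lay between -0.144 and 0.113 when single pools were left out, positive without CLA pools 1, 4 or 5 or control pools 2 or 3 and lowest without CLA pool 2, and it was -0.205 without both CLA pool 2 and control pool 4.

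**Figure D1:**
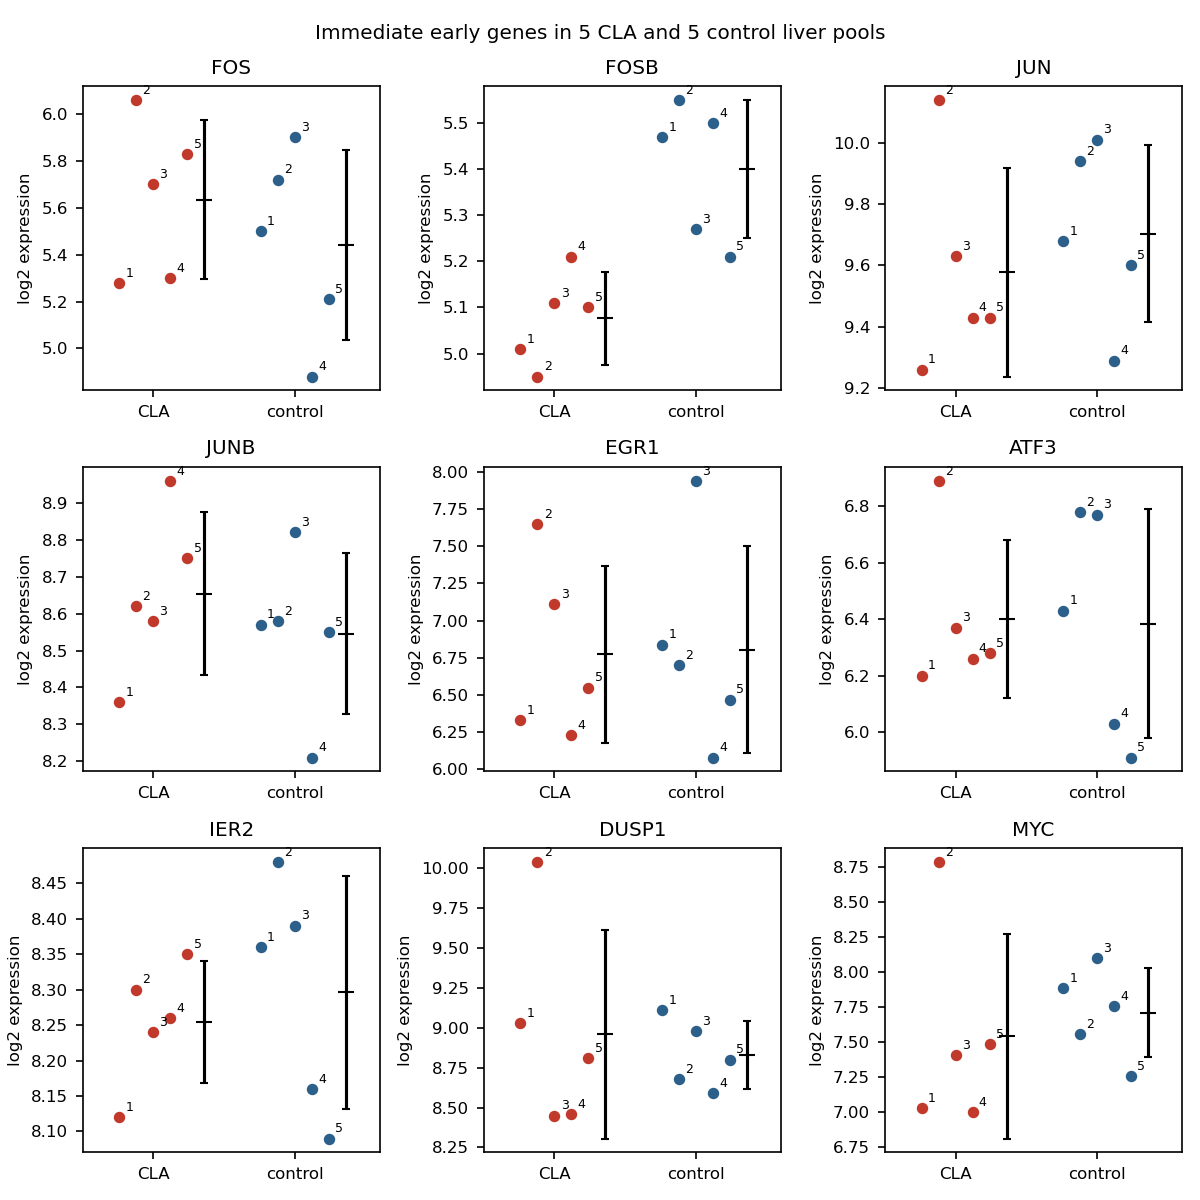
Log2 expression of the brightest probe set of each of the 9 measured genes (vertical axis, own scale per panel) in the 5 CLA pools (red, left) and the 5 control pools (blue, right); small numbers are pool numbers and black bars are the group mean with 1 SD. The groups overlap in every panel, and CLA pool 2 is the highest of all 10 pools for FOS, JUN, ATF3, DUSP1 and MYC.

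FOS is the prototype of the class and the Fos subunit of the AP-1 transcription factor, a dimer of Fos and Jun proteins. Its brighter probe set read 5.28, 6.06, 5.70, 5.30 and 5.83 in CLA pools 1 to 5, against 5.50, 5.72, 5.90, 4.88 and 5.21 in control pools 1 to 5, on the log2 scale. CLA pool 2 was the highest and control pool 4 the lowest, with the other 8 pools mixed between them. The means were 5.63 ± 0.34 in CLA pools and 5.44 ± 0.41 in control pools (SD, n = 5 each), a difference of 0.19 ± 0.20 SE in limma with a 95% interval of -0.24 to 0.63 (Benjamini-Hochberg adjusted p = 0.822). The second FOS probe set was dim, with means of 4.07 in CLA pools and 4.11 in control pools, and differed by -0.04 ± 0.097 SE. Leaving out CLA pool 2 put the difference of the brighter set at 0.086, leaving out control pool 4 at 0.051 and leaving out control pool 3 at 0.306. With both CLA pool 2 and control pool 4 left out it was -0.055, of the opposite sign.

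FOSB encodes a second Fos subunit, and its brighter probe set gave the largest contrast of the class relative to its spread. It read 5.01, 4.95, 5.11, 5.21 and 5.10 in CLA pools 1 to 5, against 5.47, 5.55, 5.27, 5.50 and 5.21 in control pools 1 to 5. The groups met at 5.21, the value of CLA pool 4 and of control pool 5, and the other 4 CLA pools lay below every control pool. The means were 5.08 ± 0.10 in CLA pools and 5.40 ± 0.15 in control pools (SD, n = 5 each), and the difference was -0.32 ± 0.085 SE (0.799-fold, 95% interval 0.703 to 0.908; limma, Benjamini-Hochberg adjusted p = 0.358). Its unadjusted p stayed under 0.05 with any single pool left out, with differences of -0.37 to -0.29. The set lay at percentile 42.1 of brightness over all probe sets, and without detection calls its height above background is unknown.

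The second FOSB probe set gave a smaller contrast; the difference between the sets was not tested. It read 5.06, 4.93, 4.98, 4.98 and 5.54 in CLA pools, against 5.03, 5.21, 5.33, 5.24 and 5.42 in control pools, so that CLA pool 5 was the highest of the 10 and 3 CLA pools lay below every control pool. The difference was -0.15 ± 0.12 SE (limma, Benjamini-Hochberg adjusted p = 0.759). With single pools left out the difference ran from -0.259, for CLA pool 5, to -0.1045, for control pool 5. Its unadjusted p in limma was under 0.05 only without CLA pool 5. After removal of the group means, no relation between the FOSB probe sets was found over the 10 pools (Pearson's r = -0.241, permutation p = 0.528, Benjamini-Hochberg adjusted 0.704 over 16 pairs of probe sets of 1 gene; Spearman's rho = -0.316, permutation p = 0.374, adjusted 0.460). Without control pools 3 and 5, the 2 farthest from the median of the brighter set, r was 0.0266.

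JUN, the main Jun subunit of AP-1 and a target of the stress kinase JNK, was read by 5 probe sets that differed widely in signal. They are numbered here from the brightest, JUN set 1, to the dimmest, JUN set 5. JUN set 1 read 9.26, 10.14, 9.63, 9.43 and 9.43 in CLA pools, against 9.68, 9.94, 10.01, 9.29 and 9.60 in control pools. CLA pool 2 was the highest and CLA pool 1 the lowest of all 10 pools, and the means were 9.58 ± 0.34 in CLA pools and 9.70 ± 0.29 in control pools (SD, n = 5 each). The difference was -0.13 ± 0.17 SE (limma, Benjamini-Hochberg adjusted p = 0.875). Its size depended on single pools, with -0.0465 when CLA pool 1 was left out, -0.067 for control pool 2 and -0.0495 for control pool 3, but -0.267 for CLA pool 2 and -0.230 for control pool 4. With both CLA pool 2 and control pool 4 left out it was -0.37 (adjusted p = 0.571 in limma), and JUN sets 1 to 3 then had unadjusted p under 0.05. The other JUN probe sets differed by -0.12 to -0.30, with Benjamini-Hochberg adjusted p in limma of 0.693 to 0.913, so all 5 had the lower mean in CLA pools and none passed.

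JUN set 2 read 7.55, 7.88, 7.60, 6.96 and 6.64 in CLA pools, against 7.63, 8.27, 7.97, 6.08 and 7.77 in control pools, so that control pool 4 stood apart at the low end. This set had the widest range of the 18, 2.19 on the log2 scale (4.56-fold) from control pool 2 to control pool 4, and its difference was -0.22 with control pool 4 and -0.58 without it, where its unadjusted p in limma was under 0.05. JUN set 3 tracked JUN set 1 closely over the 10 pools with group means removed (Pearson's r = 0.962, permutation p = 1e-05, the smallest that 100000 resamples give, adjusted 0.00016 over the 16 pairs; Spearman's rho = 0.960, adjusted 0.00016), and r was 0.900 without CLA pool 2 and control pool 3. JUN set 2 followed JUN set 1 by rank (Spearman's rho = 0.863, permutation p = 0.00221, adjusted 0.0118), while Pearson's r was 0.729 (permutation p = 0.0157, adjusted 0.126) and 0.754 without CLA pool 2 and control pool 3. For JUN set 5, a dim one, no relation with JUN set 1 was found (Pearson's r = -0.251, permutation p = 0.481, adjusted 0.704; Spearman's rho = -0.340, permutation p = 0.334, adjusted 0.446; r = -0.747 without the same pools).

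JUNB, a Jun subunit that can antagonise JUN at some promoters, read 8.36, 8.62, 8.58, 8.96 and 8.75 in CLA pools, against 8.57, 8.58, 8.82, 8.21 and 8.55 in control pools. Here CLA pool 4, and not CLA pool 2, was the highest, and control pool 4 was again the lowest. The difference was 0.11 ± 0.13 SE with a 95% interval of -0.16 to 0.38 (limma, Benjamini-Hochberg adjusted p = 0.843). Leaving out pool 4 of the CLA or of the control group brought it down to 0.0315 or 0.024, and leaving out CLA pool 1 or control pool 3 raised it to 0.182 or 0.177. ATF3, a stress-induced partner of Jun proteins and often a repressor, read 6.20, 6.89, 6.37, 6.26 and 6.28 in CLA pools, against 6.43, 6.78, 6.77, 6.03 and 5.91 in control pools. CLA pool 2 stood above the other CLA pools, while the control pools spread from 5.91 to 6.78 and enclosed the remaining 4 CLA pools. The ATF3 means were nearly equal, 6.40 ± 0.28 in CLA pools and 6.38 ± 0.41 in control pools (SD, n = 5 each), with a difference of 0.016 ± 0.19 SE and a 95% interval of -0.39 to 0.42 (limma, Benjamini-Hochberg adjusted p = 0.990). With single pools left out it ran from -0.106, for CLA pool 2, to 0.115, for control pool 2, and was also negative for control pools 4 and 5.

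EGR1, a zinc finger transcription factor induced through SRF and ETS factors, varied most between pools among the brightest probe sets. It read 6.33, 7.65, 7.11, 6.23 and 6.55 in CLA pools, against 6.84, 6.70, 7.94, 6.08 and 6.47 in control pools. Control pool 3 was the highest and control pool 4 the lowest of the 10, 1.86 apart on the log2 scale or 3.63-fold, so both extremes lay in 1 group. The difference was -0.032 ± 0.34 SE with a 95% interval of -0.77 to 0.70 (limma, Benjamini-Hochberg adjusted p = 0.989), which spans changes of 0.588-fold to 1.63-fold. The sign of that difference turned without control pool 3, where it was 0.252, and without CLA pools 1, 4 or 5 (0.079, 0.104 and 0.024). The second EGR1 probe set, with means of 4.70 in CLA pools and 4.83 in control pools, differed by -0.14 ± 0.11 SE, and CLA pool 3 lay lowest there at 4.28; without that pool the difference was -0.032.

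**Figure D2:**
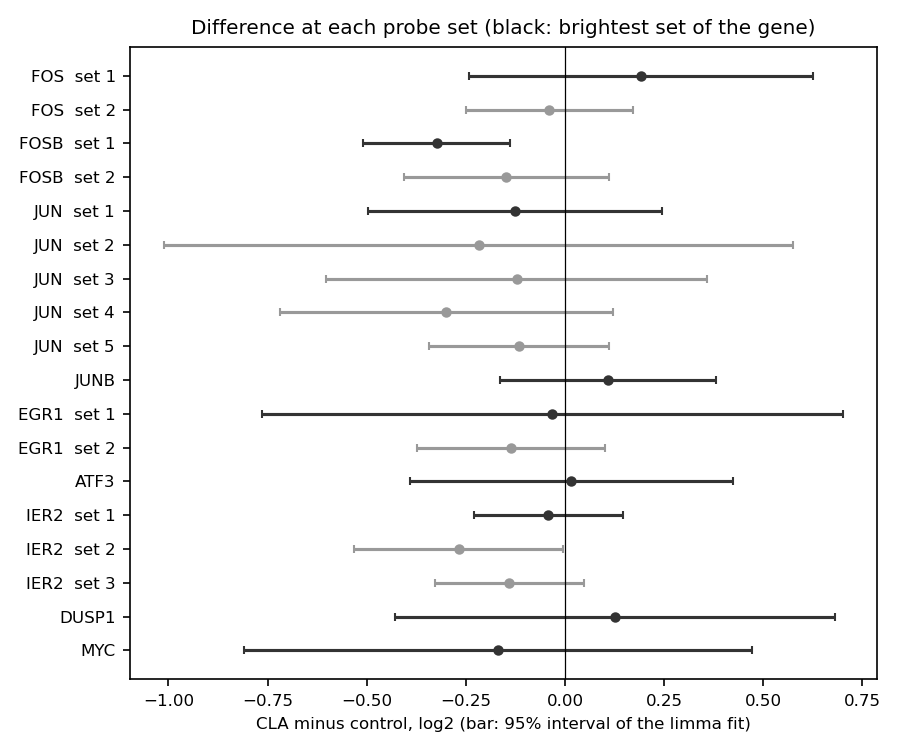
Difference of each of the 18 probe sets, CLA minus control on the log2 scale (points), with the 95% interval of the limma fit (bars); probe sets of a gene are numbered from the brightest, which is black. The intervals of the first FOSB set (-0.51 to -0.14) and of the second IER2 set (-0.53 to -0.0050) lie below 0, and the other 16 include 0.

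IER2 encodes a small nuclear protein that is induced with FOS. Its brightest probe set, IER2 set 1, read 8.12, 8.30, 8.24, 8.26 and 8.35 in CLA pools, against 8.36, 8.48, 8.39, 8.16 and 8.09 in control pools. The pools lay within 0.39 of each other and the groups overlapped, with a difference of -0.042 ± 0.086 SE (limma, Benjamini-Hochberg adjusted p = 0.925). The probe set called without adjustment, IER2 set 2, read 5.14, 4.61, 4.90, 5.20 and 5.23 in CLA pools, against 5.07, 5.34, 5.39, 5.41 and 5.21 in control pools. All 5 CLA pools lay below the control mean but 3 of them lay above control pool 1, and the difference was -0.27 ± 0.12 SE (limma, Benjamini-Hochberg adjusted p = 0.558). Its unadjusted call ended without CLA pools 2 or 3 or control pools 2, 3, 4 or 5, and after each of the other normalizations. No relation of its profile with that of IER2 set 1 was found (Pearson's r = -0.0333, permutation p = 0.926, adjusted 0.926; Spearman's rho = 0.0424, permutation p = 0.918, adjusted 0.918; r = -0.0225 without control pools 4 and 5). The third set lay among the dimmest 2.47% of the array and differed by -0.14 ± 0.086 SE.

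DUSP1, a phosphatase that switches off stress and growth factor kinases and is also induced by glucocorticoids, read 9.03, 10.04, 8.45, 8.46 and 8.81 in CLA pools, against 9.11, 8.68, 8.98, 8.59 and 8.80 in control pools. CLA pool 2 was the highest, with control pool 1 next, and CLA pools 3 and 4 lay below every control pool. The means were 8.96 ± 0.65 in CLA pools and 8.83 ± 0.21 in control pools (SD, n = 5 each). The difference was 0.13 ± 0.25 SE (limma, Benjamini-Hochberg adjusted p = 0.924), and without CLA pool 2 it was -0.144.

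MYC, a transcription factor of growth and ribosome production, read 7.03, 8.79, 7.41, 7.00 and 7.49 in CLA pools, against 7.89, 7.56, 8.10, 7.76 and 7.26 in control pools. CLA pool 2 again stood above all other pools, while the other 4 CLA pools lay below 4 of the 5 control pools. The means were 7.54 ± 0.73 in CLA pools and 7.71 ± 0.32 in control pools (SD, n = 5 each), with a difference of -0.17 ± 0.29 SE (limma, Benjamini-Hochberg adjusted p = 0.910). Without CLA pool 2 the difference was -0.481, and MYC then had an unadjusted p under 0.05 in limma, so that 2 genes in place of 1 were called by that lenient threshold. It was -0.042 when CLA pool 1 was left out and -0.034 when CLA pool 4 was.

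Most of the 9 genes, though not FOSB or IER2, varied more between pools than most of the array. The SD between pools within groups exceeded 0.282, the 90th percentile of all probe sets, for 6 of the 9 genes at their brightest set and for 9 of the 18 sets, where 10% of all probe sets did so by definition and 8.33% of the brightest sets of all named genes. EGR1 had an SD of 0.65 (percentile 99.3 of all probe sets), MYC 0.56 (98.8), DUSP1 0.49 (97.8), FOS 0.37 (95.2), ATF3 0.35 (94.2) and JUN 0.32 (92.5). Among probe sets within 0.5 log2 units of the same brightness the percentiles were close to these, from 89.9 for ATF3 to 98.6 for EGR1. JUNB (0.22, percentile 80.1), IER2 (0.13, 35.4) and FOSB (0.13, 33.0) varied less, and the SDs of IER2 and FOSB lay below the median of all probe sets, 0.152. FOSB, whose group contrast had the lowest p of the class, was thus among its members with the smallest spread. The SD was larger in CLA than in control pools for DUSP1 (0.65 against 0.21), MYC (0.73 against 0.32) and JUN (0.34 against 0.29). CLA pool 2 was the highest pool for each of them. It was smaller in CLA pools for EGR1 (0.60 against 0.70), FOS (0.34 against 0.41) and ATF3 (0.28 against 0.41). The spread was not recomputed without CLA pool 2.

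**Figure D3:**
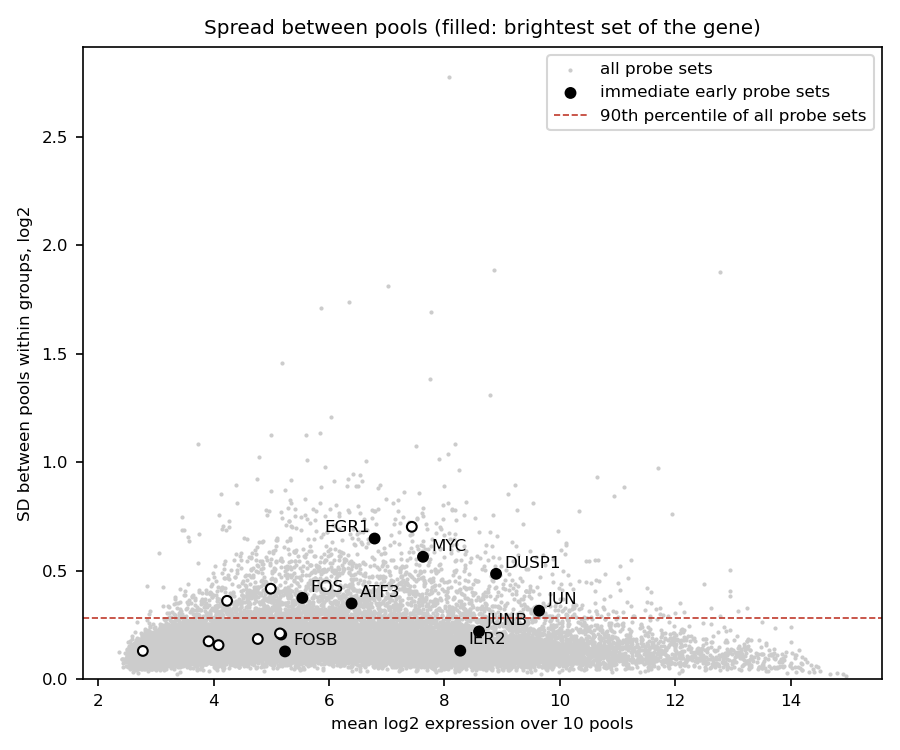
SD between pools within groups (vertical axis, log2 units) against mean log2 expression over the 10 pools (horizontal axis) for all 24016 probe sets (grey) and the 18 immediate early probe sets (circles, filled for the brightest set of each gene). Filled circles of EGR1, MYC, DUSP1, FOS, ATF3 and JUN lie above the dashed line at 0.282, the 90th percentile of all probe sets.

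Much of this variation was shared. With group means removed, 29 of the 36 pairs among the 9 genes correlated positively over the 10 pools, with a median Pearson's r of 0.518, and 11 pairs had a Benjamini-Hochberg adjusted permutation p under 0.05 over the 36 (6 pairs by Spearman's rho). By comparison, the median r of a single member with all other 9154 named genes lay between -0.057 for JUNB and 0.161 for MYC. A member had r over 0.6 with 2.08% (JUNB) to 13.6% (MYC) of those genes. Of the 8 other members, r was over 0.6 with 0 (FOSB and JUNB) to 6 (JUN). The share of all gene pairs that would pass the permutation test was not counted. The median r over the 36 pairs was 0.488 to 0.602 with single pools left out, 0.499 after quantile normalization and 0.388 without both CLA pool 2 and control pool 4. It was lowest, at 0.308 with 25 of 36 pairs positive, when each pair was recomputed without the 2 pools farthest from the median of its first gene. The permutations moved values across both groups and made no allowance for the removed group means, so the permutation p-values lean low. Pairs with an adjusted p close to 0.05 are the least certain. The arrays share 1 normalization, and the labels gave no date, slide or other batch by which to divide the pools.

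At their brightest probe sets, FOS, JUN, EGR1 and ATF3 formed the tightest group. FOS followed JUN (Pearson's r = 0.886, permutation p = 0.0006, adjusted 0.0108; Spearman's rho = 0.894, permutation p = 0.00097, adjusted 0.0145), EGR1 (r = 0.859, permutation p = 0.00102, adjusted 0.0121; rho = 0.891, permutation p = 0.00121, adjusted 0.0145) and ATF3 (r = 0.861, permutation p = 0.00178, adjusted 0.0128; rho = 0.842, permutation p = 0.00368, adjusted 0.0265). These held without CLA pool 1 and control pool 4, the pools farthest from the median of FOS, at r of 0.796, 0.814 and 0.851. JUN followed ATF3 (r = 0.889, permutation p = 0.00056, adjusted 0.0108; rho = 0.851, permutation p = 0.00291, adjusted 0.0262) and EGR1 (r = 0.869, permutation p = 0.00135, adjusted 0.0121; rho = 0.912, permutation p = 0.00064, adjusted 0.0145), at r of 0.778 and 0.751 without CLA pool 2 and control pool 3. EGR1 followed ATF3 at r = 0.788 (permutation p = 0.00689, adjusted 0.0354; rho = 0.806, permutation p = 0.00702, adjusted 0.0421), and r was 0.539 without the same pools. No relation was found between the 2 FOS sets (Pearson's r = 0.376, permutation p = 0.277) or the 2 EGR1 sets (r = -0.070, permutation p = 0.849). For FOS r was -0.055 without CLA pool 1 and control pool 4. For EGR1 it was -0.789 without CLA pool 2 and control pool 3. Over the 16 pairs of probe sets of 1 gene the median r was 0.063, with 8 positive and 8 negative.

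**Figure D4:**
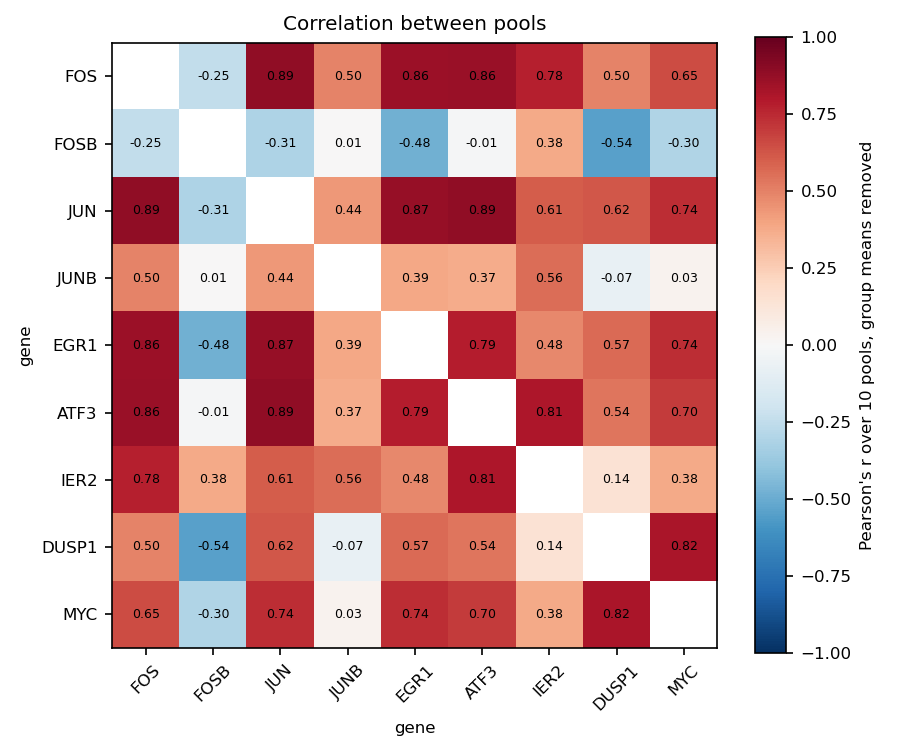
Pearson's r between the 9 genes (both axes, brightest probe sets) over the 10 pools after the mean of each group was removed; red is positive and blue negative. FOS, JUN, EGR1 and ATF3 correlate at 0.79 to 0.89 with each other, and the FOSB row stays between -0.54 and 0.38.

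IER2, DUSP1 and MYC joined this group in part. IER2 followed ATF3 (r = 0.808, permutation p = 0.00549, adjusted 0.0329; rho = 0.770, permutation p = 0.0124, adjusted 0.0640; r = 0.820 without CLA pool 2 and control pool 2) and FOS (r = 0.778, permutation p = 0.0094, adjusted 0.0423; rho = 0.733, permutation p = 0.0201, adjusted 0.0906; r = 0.654 without CLA pool 1 and control pool 4). DUSP1 and MYC followed each other by Pearson's r of 0.817 (permutation p = 0.0128, adjusted 0.0446) but not by rank after adjustment (Spearman's rho = 0.576, permutation p = 0.0885, adjusted 0.245), and r was 0.505 without CLA pools 2 and 3. MYC with JUN had r = 0.739 (permutation p = 0.0136, adjusted 0.0446; rho = 0.535, permutation p = 0.114, adjusted 0.274), which was 0.144 without CLA pool 2 and control pool 3, so this relation rested on those pools. MYC with EGR1 likewise had r = 0.739 (permutation p = 0.0135, adjusted 0.0446; rho = 0.661, permutation p = 0.0436, adjusted 0.174) and 0.347 without them.

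FOSB and JUNB did not vary with the others past the test. For JUNB the r with other members ran from -0.075 with DUSP1 to 0.558 with IER2, and no pair passed. For FOSB it ran from -0.543 with DUSP1 to 0.382 with IER2, with a median of -0.272, and 6 of its 8 values were negative. FOSB and FOS, which many stimuli induce together, had r = -0.246 here (permutation p = 0.486, adjusted 0.564; rho = -0.273, permutation p = 0.449, adjusted 0.561; r = -0.222 without CLA pool 1 and control pool 4).

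Read by pool, the shared variation put a high and a low pool in each diet group. CLA pool 2 was the highest of the 10 pools for 5 of the 9 genes and averaged 0.508 above its own group's mean over the 9. How often this pool was the highest over the whole array was not counted, and its mean correlation with the other arrays was the lowest. Whether the count is particular to the early genes is therefore unknown. Control pool 3 averaged 0.340 above its group, with 8 of 9 genes above the group mean and EGR1 at 1.13 above it. Control pool 4 averaged -0.292, control pool 5 -0.225, CLA pool 1 -0.250 and CLA pool 4 -0.196 against their own groups. Set against the control mean, the 9 genes averaged -0.28, 0.48, -0.058, -0.22 and -0.059 in CLA pools 1 to 5, against 0.081, 0.096, 0.34, -0.29 and -0.22 in control pools 1 to 5, so that 4 of the 5 CLA pools were negative and the groups overlapped over nearly their whole range.

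**Figure D5:**
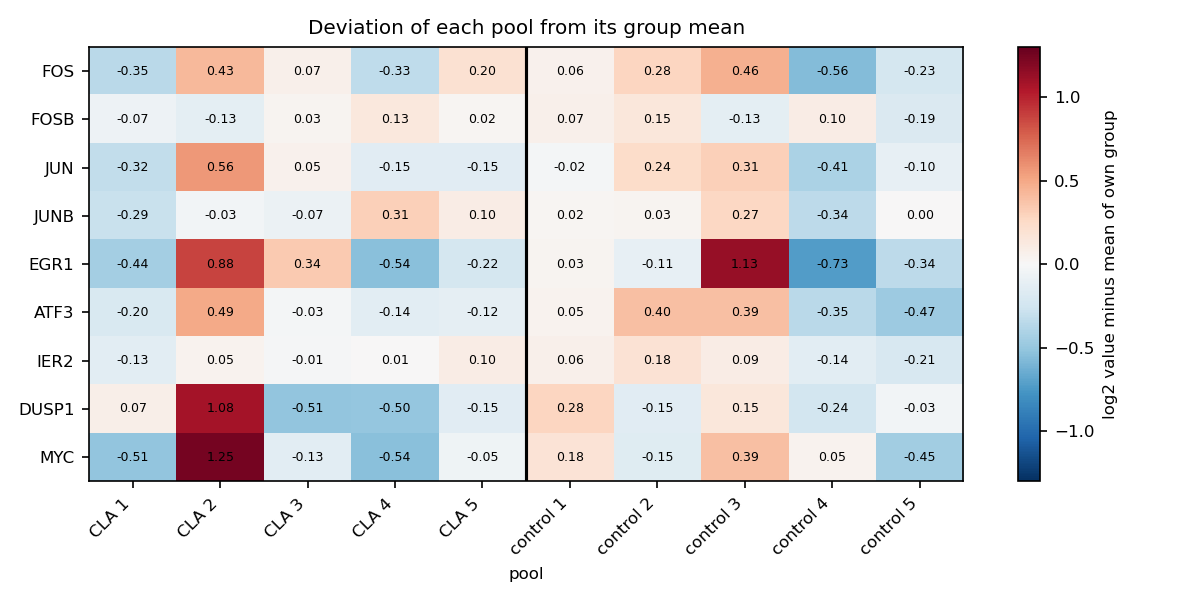
Log2 value of each gene (rows, brightest probe set) in each pool (columns, CLA pools left of the line and control pools right of it) minus the mean of that pool's own group, printed in each cell and coloured from blue (below) to red (above). CLA pool 2 and control pool 3 are mostly red and CLA pool 1 and control pool 4 mostly blue, while the FOSB row stays within 0.19 of its group means.

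A few measures of RNA quality and of other cell types were set beside these pools. The signal of the actin control probes at the 3′ end minus that at the 5′ end, which grows as RNA is broken or shortened, was 1.26 to 2.48 in CLA pools and 1.53 to 2.77 in control pools on the log2 scale. It was 1.42 in CLA pool 2 and 1.53 in control pool 3, the pools with high early gene levels, and in the 4 pools with low levels it was 1.65 in CLA pool 1, 1.47 in CLA pool 4, 1.64 in control pool 4 and 2.03 in control pool 5, so that the high and the low pools overlapped. Array spread was widest in CLA pool 2 (SD of 2.43 log2 units over its probe sets, against 2.34 to 2.41 in the other 9 pools), and its part in the values of that pool was not tested.

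Neutrophil markers (13 of 16 measured, among them S100A8 and S100A9) averaged 4.95 to 5.18 in CLA pools and 4.95 to 5.18 in control pools, and were 0.085 above the control mean in CLA pool 2 and -0.137 against it in control pool 3. Macrophage and Kupffer cell markers (10 of 12 measured) averaged 9.06 to 9.32 in CLA pools and 8.98 to 9.44 in control pools, and were -0.111 and -0.245 against the control mean in CLA pool 2 and control pool 3. T and NK lymphocyte markers (12 of 14), 5.94 to 6.21 in CLA pools and 6.01 to 6.42 in control pools, were at -0.059 and -0.212 there. Stellate cell and fibroblast markers (12 of 12) were lowest of all pools in CLA pool 2, at -0.387, and at -0.078 in control pool 3. B lymphocyte and plasma cell markers (6 of 9) were at 0.037 and -0.067 in those pools, endothelial markers (12 of 12) at 0.046 and -0.080, erythroid markers (5 of 9) at -0.088 and -0.0080, and skeletal muscle markers (9 of 11) at -0.112 and -0.020. Hepatocyte markers were at 0.062 and 0.063, and the other 8 lists were below the control mean in control pool 3.

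Pools with low early gene levels stood apart in some of these lists too. In CLA pool 1, T and NK lymphocyte markers were the lowest of the 10 pools at -0.281, and B lymphocyte and plasma cell markers were at -0.257. In control pool 4, endothelial markers were the highest of the 10 at 0.254 and hepatocyte markers the lowest at -0.092. Between the groups, 10 of 12 T and NK markers and 9 of 10 macrophage markers had the lower mean in CLA pools, with median differences of -0.142 and -0.058. All 5 erythroid markers were lower and 9 of 11 hepatocyte markers higher, where 53.2% of all named genes had a lower mean. At an unadjusted p under 0.05 limma called none of the T and NK or macrophage markers. It called 2 endothelial and 2 stellate cell markers with the higher mean in CLA pools. With the lower mean it called 1 each of the neutrophil, B lymphocyte and erythroid markers. Of the 12 endothelial markers 7 had the lower mean in CLA pools, with a median difference of -0.041. The other probe sets of the 2 called endothelial genes differed by -0.21 (unadjusted p under 0.05 in limma), -0.10 and -0.01. Of the 12 stellate cell markers 7 were higher and 5 lower in mean. Of all named genes 8.5% were called, and no marker passed after adjustment. The part of these cells in the early gene levels was not tested.

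No other gene of the pathway passed the adjusted test either. Over 107 measured genes of 7 lists (relatives of AP-1, ATF and EGR factors, other early response genes, kinase phosphatases and feedback inhibitors, upstream kinases with SRF, MYC partners, heat shock genes and glucocorticoid-induced genes), 52 had a higher and 53 a lower mean in CLA pools, and limma called 4 at an unadjusted p under 0.05 (3.74%, where 8.5% of all named genes were called) and 0 after adjustment. The groups did not overlap for 2 of them, ATF7 and ATF1, and for 2.17% of all named genes. Among relatives of AP-1, ATF and EGR factors 6 of 15 were higher and 9 lower in mean, with a median of -0.026. ATF7, a CREB-family factor that can pair with Jun, read 4.93, 4.87, 4.77, 4.67 and 4.97 in CLA pools, against 4.98, 5.35, 5.30, 5.09 and 5.45 in control pools. The gap between the groups was 0.01, and the other ATF7 probe set had a difference of -0.06 ± 0.12 SE. ATF1, a relative of CREB that acts on many early promoters, read 8.11, 8.67, 8.28, 8.19 and 8.09 in CLA pools, against 8.08, 7.99, 8.07, 8.01 and 7.97 in control pools. All CLA pools lay above all control pools, most so CLA pool 2, with a difference of 0.24 ± 0.10 SE (limma, Benjamini-Hochberg adjusted p = 0.534), and the other ATF1 probe sets differed by 0.016 and -0.042.

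Other early response genes, such as the NR4A receptors, ZFP36 and SOCS3, had 26 of 39 means higher and 12 lower in CLA pools, with a median of 0.068, and 0 with an unadjusted p under 0.05 in limma. GADD45A, a stress and growth arrest gene, had the lowest p of them, with a difference of 0.39 ± 0.20 SE, and its control pool 4 read 5.43 where the other 4 control pools read 6.48 to 6.74. KLF4, a zinc finger factor related to KLF6, differed by -0.23 ± 0.13 SE. Of 7 phosphatases and feedback inhibitors 5 were higher in mean (median 0.088), with SPRED1 at 0.13 ± 0.091 SE and SPRY2 at 0.12 ± 0.11 SE, both inhibitors of the Ras and ERK pathway, and 0 of the 7 were called by limma without adjustment.

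Of 18 upstream kinases and SRF factors 13 were lower in mean in CLA pools, with a median of -0.045. NRAS, a Ras protein upstream of ERK, was the 1 gene of that list with an unadjusted p under 0.05 (0.20 ± 0.083 SE; limma, Benjamini-Hochberg adjusted p = 0.530), while the kinase BRAF differed by -0.24 ± 0.16 SE with CLA pool 2 lowest at 4.72. Among 6 MYC partners MLXIPL, the glucose-responsive factor ChREBP, differed by -0.24 ± 0.13 SE and MAX, the dimer partner of MYC, by -0.11 ± 0.076 SE. Heat shock genes, another sign of acute stress, had 6 means higher and 10 lower of 17 (median -0.022), with HSF1, the heat shock transcription factor, at -0.16 ± 0.074 SE and the mitochondrial chaperone HSPD1 at 0.068 ± 0.069 SE. Glucocorticoid-induced genes, 4 of which (DUSP1, NFKBIA, SGK1 and ERRFI1) stand in the other lists too, had 6 of 9 means higher, with ERRFI1 at 0.19 ± 0.13 SE and the metallothionein MT2A at -0.76 ± 0.27 SE (limma, Benjamini-Hochberg adjusted p = 0.461).

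Genes outside the class were ranked by how closely they followed it over the pools after removal of group means. For FOS they were ZCCHC10 (Pearson's r = 0.948), SLBP (0.922), which binds histone messenger RNA, and KLHL2 (0.914), out of 9146 genes ranked. For the mean over the 9 members they were SLBP (0.964), TMEM39A (0.952) and CCNA2 (0.949), cyclin A2 of the cell cycle. CCNA2 read 3.86, 4.93, 4.12, 3.65 and 4.16 in CLA pools, against 4.08, 4.23, 4.57, 3.92 and 3.75 in control pools, again highest in CLA pool 2 and then control pool 3. SLBP read 8.58 in CLA pool 2 and 8.34 to 8.43 in the other CLA pools, against 8.46 in control pool 3 and 8.23 to 8.42 in the other control pools. These genes were picked as the top of a ranking over few pools, and they carry no test.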

How the data were processed

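Liver RNA was read on the Affymetrix bovine array in 10 pools of 4 cows, 5 per diet. The deposited values are log2 expression per probe set, normalized by the authors; per the submitters' processing notes Affymetrix Expression Console 1.1 and RMA were used, with settings not given in the sources used here. They have 2 decimals and were used as deposited. No genome build was named, so no coordinates are given. Of 24128 probe sets 112 manufacturer controls were left out; 13292 of the 24016 tested have a single gene symbol, and the 18 member sets carry the same symbols in RefSeq (ARS-UCD2.0).

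Differences are CLA minus control, fitted over all probe sets with lmFit and eBayes (limma 3.58.1, R 4.3.3), without covariates or filter, and adjusted by Benjamini-Hochberg; the fit was tested on simulated data. A gene is represented by its brightest probe set over the 10 arrays. Correlations used values with group means removed and permutation tests with 100000 resamples. The resamples moved values across both groups without allowance for the removed means, so the p-values are approximate and lean low. Members and lists were chosen with earlier results of these data known. Genes named are all members, the 2 of smallest p in each pathway list, pathway genes with an unadjusted p under 0.05 whose groups do not overlap, and the 3 most like FOS or the member mean. Same-numbered pools correlated at -0.086 to 0.092 in their deviations, which does not settle whether the numbers pair pools, and the labels do not say. The main fit left them unpaired. Alternatives were each pool left out, a block for the pool number, removal of the dimmest 30%, 3 normalizations, 3 variance settings and probe set means. Precision is limited by the number of arrays.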

Additional observations from a re-analysis of the deposited data

Results flagged for a closer look

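A gap between 1 pool and the other 4 of its group, larger than chance gives in about 1 of 20 groups, was seen in 10 of 110 groups examined, 5 of them among the 36 of the members. The share over all probe sets was not counted. Genes outside the members were examined because of a small p or because they followed the members, so the counts are descriptive only. CLA pool 2 stood above the other CLA pools for MYC (8.79, others 7.00 to 7.49), for ATF3 (6.89, others 6.20 to 6.37) and for JUN set 3, the third in brightness (5.76, others 4.66 to 4.86). CLA pool 5 stood high for the second FOSB probe set (5.54, others 4.93 to 5.06), and CLA pool 3 stood low for the second EGR1 probe set (4.28, others 4.77 to 4.84).

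Outside the members, CLA pool 2 was high for KLHL2 (9.53, others 9.11 to 9.20) and low for BRAF (4.72, others 5.37 to 5.63). Control pool 4 was low for GADD45A (5.43, others 6.48 to 6.74). SPRED1 was high in CLA pool 3 (5.26, others 4.99 to 5.06) and low in control pool 5 (4.66, others 4.98 to 5.09). The causes were not tested.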

How the results depend on the processing

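Over 20 alternative fits 0 of the member probe sets had an adjusted p under 0.05; the lowest adjusted p was 0.287, that of FOSB without control pool 3. Array-wide, limma called 0 probe sets in the main fit and 1, not a member, without both CLA pool 2 and control pool 4. Of 343 recomputed differences 327 kept their direction and 16 turned. The pool number block, removal of the dimmest sets and variance settings without array weights left each difference as in the main fit. Directions could not turn in those fits, so the count that kept them overstates their stability. Where the probe sets of a gene were averaged, the recomputed differences were those of gene means. The brighter FOSB set had an unadjusted p under 0.05 in every alternative fit that tested it alone. Where the probe sets of a gene were averaged, the mean of both FOSB sets did. The count of such genes was 1 to 2 with single pools left out (2 without CLA pool 2), 2 when the probe sets of a gene were averaged and 3 without both CLA pool 2 and control pool 4, a pair of arrays chosen after seeing the data as farthest from the rest. The median difference over the genes was -0.144 to 0.113 with single pools left out, -0.141 with array weights and -0.205 without both pools. The count over the other lists was 3 to 8, with 8 without control pool 1.

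With single pools left out, the difference turned for EGR1 (-0.251 to 0.252), ATF3 (-0.106 to 0.115), DUSP1 (-0.144 to 0.253) and the brightest IER2 set (-0.094 to 0.004). The dim FOS set turned to 0.0026 after quantile and 0.0039 after cyclic loess normalization. With array weights ATF3 was -0.141 and DUSP1 -0.105. Without both CLA pool 2 and control pool 4 FOS was -0.055, ATF3 -0.195 and DUSP1 -0.205. The causes were not tested. The pool number as a replicate block changed no adjusted call: the count of genes with an unadjusted p under 0.05 was 1 and the lowest adjusted p 0.397, while JUN set 4 in place of IER2 set 2 was called without adjustment. Subtraction of array medians moved the median of all differences by 0.031, from -0.018 to 0.013, and turned no member. Array-wide, limma called 962 probe sets higher and 1173 lower in CLA at an unadjusted p under 0.05 in the main fit. After that subtraction it called 1474 higher and 627 lower. The array-wide shares with a lower mean in CLA pools thus depended on the normalization. The values hold no detection calls, so it is unknown how far above background lie the dim FOS, JUN, EGR1 and IER2 sets. The same holds for both FOSB sets, at percentiles 42.1 and 41.2 of brightness over all probe sets.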
